A study of Mus musculus with 15 samples.

Results

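Hotspots were the autosomal CG dinucleotides that carried at least 100 reads in both hmTOP-seq libraries made from 500 ng of DNA. There were 280 such CGs among 20383623 autosomal CGs, and they fell into 40 of the 239710 autosomal 10-kb bins that hold a CG. These CGs were chosen by their 500-ng counts, so those counts are given as a description, and tests were made only in libraries that had no part in the choice. The coordinates are those of mouse GRCm38 (mm10).

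hmTOP-seq maps 5-hydroxymethylcytosine (5hmC), the oxidized form of 5-methylcytosine that TET enzymes make. The glucosyltransferase BGT places an azide-bearing glucose on 5hmC, a DNA oligonucleotide is clicked to the azide, and a polymerase primed by that oligonucleotide begins a read at or beside the labeled CG. uTOP-seq tags unmodified CGs in the same manner. All libraries came from E14TG2a, an established mouse embryonic stem cell line, and the labels name no treatment, so 1 cell line stands behind every value: 2 technical replicates of hmTOP-seq at each of 500, 50 and 5 ng, 2 controls without BGT at each of these inputs, and 3 uTOP-seq libraries at 300 ng. The study calls the hmTOP-seq replicates technical, and nothing says that the uTOP-seq libraries came from separate cultures, so p-values measure only the spread between these libraries.

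Depth ran from 14884939 reads in the first 5-ng library to 32502791 in the first 500-ng library, uTOP-seq had between 20120568 and 28412885 reads, and the controls held between 3409 and 10072. Levels are given as folds over single-copy CGs, meaning the 15142526 autosomal CGs outside hotspot bins and outside soft-masked repeats whose surrounding 100 bases occur once in the reference. Such a CG had on average 1.81 to 1.85 reads in the 500-ng libraries, 1.25 to 1.31 in the 50-ng, 0.841 to 0.863 in the 5-ng and 1.15 to 1.63 in the uTOP-seq libraries. Values carry the SD over the replicates of a group, with n = 2 for each hmTOP-seq input and n = 3 for uTOP-seq.

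Some stretches of a mammalian genome exist in many near-identical copies of which a reference assembly holds few. The 45S ribosomal DNA, whose transcript is cut into 18S, 5.8S and 28S ribosomal RNA, is tandemly repeated in this way, satellite arrays at the centromeres are another example, and sequence next to centromeres and telomeres is often duplicated between chromosomes. When a copy is missing from the reference, its reads can be placed on the copy that is present. Reads gathered from several copies can raise many CGs of a stretch and both assays. A CG gives reads only in an assay whose mark it carries, so not every CG need be raised. The hotspots were described by their level in uTOP-seq, the level of neighboring CGs and the similar sequence found elsewhere. The copy number in these cells was not measured, and its part in the counts was not tested.

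The places are illustrated by 8 of the CGs named here, each with 30 reference bases of the plus strand, 5′ to 3′, and the hotspot CG itself in capitals. The first 6 are among the 10 hotspots with the highest 500-ng counts, and the last 2 lie just above the minimum of 100 reads.
chr15:75086878-75086907, near Ly6c2: ggtcaatgtgcagcCGagtgacaggacaag
chr15:75086717-75086746, near Ly6c2: ctgcacttgcaaacCGggccactagaaccc
chr17:3082296-3082325, intron of Pisd-ps2: gtgagtctcctactCGgggcacagaggact
chr11:3146129-3146158, intron of Sfi1: ctgtcccagacacaCGggaactgcacagca
chr11:3193334-3193363, Sfi1 and Drg1: tggaggcgctaggcCGggcctcgtacctga
chr17:39843835-39843864, rDNA bin: cctctcttggtggcCGgggctcgtcggggt
chr17:39848564-39848593, rDNA bin: ccggcacccatcccCGccgcggctctggct
chr11:109011914-109011943, Gm36876: gcggcgcccatctcCGccactctggatttg

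Hotspots were found on 15 of the 19 autosomes, but 119 lay on chromosome 17 and 104 on chromosome 11, together 79.6%. The bin chr17:39840001-39850000 alone held 117, within 5710 bases that GENCODE M21 assigns to the noncoding genes Gm26917, Gm42418, AY036118 and CT010467.1, the last annotated as ribosomal RNA, and to which RefSeq assigns Rn18s-rs5, an 18S ribosomal RNA-related sequence. It is called the rDNA bin here. A further 89 lay in 8 successive bins, chr11:3120001-3200000, over the pseudogene Pisd-ps1, the gene Sfi1, whose product binds centrin at centrosomes, and part of Drg1. These are called the Sfi1 bins. Of the other bins, 11 held several hotspots, 54 in all, and 20 held 1 hotspot each.

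GENCODE placed 133 hotspots in exons of noncoding genes, 71 in introns, 42 outside genes, 25 in coding exons and 9 in UTRs. Exons held 59.6% of the hotspots and 11.5% of all autosomal CGs, but 116 of the exonic hotspots were those of the rDNA bin. The 100 bases around a hotspot had a median GC content of 61% and a median of 7 CGs, against 48% and 2 CGs over all autosomal CGs. Soft-masked repeats held 7.14% of the hotspots and 24.6% of all CGs. A C preceded the hotspot CG in 46.4% of cases and a G followed it in 45.0%, compared with 26.8% and 26.7% of all autosomal CGs. The rDNA bin weighs on the CG density: the median was 10 CGs there, 4 in the Sfi1 bins and in the other bins with several hotspots, and 3 in the bins with 1. Neighboring hotspots share much of the same 100 bases.

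The highest counts were found at chr15:75086892, a CG outside genes and 21265 bases from Ly6c2, which encodes a surface protein of myeloid cells. The 500-ng libraries held 984 and 982 reads, the 50-ng libraries 973 and 937, and the 5-ng libraries 903 and 900. uTOP-seq counted 279, 250 and 236 reads at the same CG. Its counts at 5 ng were thus still at least 900 reads, although the libraries as a whole held 0.700 times as many reads at 50 ng and 0.468 times as many at 5 ng as at 500 ng. The fold over single-copy CGs was thus 538 in the 500-ng libraries and 748 ± 3.40 in the 50-ng libraries. It was 1058 ± 22.1 in the 5-ng libraries and 189 ± 16.9 in uTOP-seq. Reads with the same start and length had been removed, so a CG can hold only a limited number of distinct reads. Hotspots with a mean 500-ng count from 100 to below 150 had 0.482 reads in the 5-ng libraries per 500-ng read. From a mean of 300 upward the value was 0.706. Both the classes and the divisor are the 500-ng counts that chose the hotspots. A CG near the minimum enters only where its 500-ng counts are high, which favors a low ratio there. The difference between these classes is therefore no independent result. Whether the limit raised the folds of high-count CGs at low input was not tested.

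Other places differed in how their level moved from 50 to 5 ng, neither of which had a part in the choice. The 9 hotspots of the bin near Ly6c2 went from 329 ± 2.60 to 459 ± 20.4 times the single-copy level, the 8 in the bin of Gm10800 and Gm10801 from 119.98 ± 3.88 to 182 ± 23.3 times, and the 6 in Aida, a gene of a regulator of axin signaling, from 136 ± 10.2 to 188 ± 7.59 times. In the rDNA bin the hotspots stood at 98.2 ± 2.18 and 96.3 ± 3.22 times, and the 36 hotspots at the border of Sfi1 and Drg1 at 99.1 ± 1.63 and 94.2 ± 6.21 times. The hotspots of these last 2 bins thus kept their level to within the SD of the 5-ng libraries. The bins with higher values at 5 ng were picked after their values were seen. Whether the limited number of distinct reads per CG had a part in their higher folds was not tested.

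CGs with nearly the same 500-ng counts lay on both sides of the threshold. Just inside lay chr11:109011928 with 101 and 100 reads, chr11:3193428 with 100 and 102, and chr17:39848578 with 104 and 100. Just outside lay chr17:39843645 with 99 and 137 reads, chr7:38183355 with 118 and 99, and chr17:39844202 with 117 and 98. All 6 were in or beside places that held hotspots, and a further 2770 autosomal CGs had 50 to 99 reads in their lower 500-ng library.

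Libraries outside the choice showed the same CGs at high counts. At 50 ng, 192 and 171 of the 280 hotspots had at least 100 reads in the first and second replicate, and none was without a read. At 5 ng, 93 and 104 reached 100 reads, and 1, chr1:74793457 in a coding exon of the WNT ligand gene Wnt10a, had no read in the second replicate after 18 in the first. Over all 280 hotspots, the median level was 89.6 ± 1.63 times the single-copy level at 50 ng and 88.0 ± 0.0305 times at 5 ng, beside 85.2 at 500 ng. This near equality depends on the base level: against single-copy CGs that had a read in the same library, the medians were 19.9 at 50 ng, 5.97 at 5 ng and 30.1 in uTOP-seq. In uTOP-seq, which reads the unmodified state, the median was 70.7 ± 0.296 times the single-copy level, and 251 hotspots reached 10 times that level while 29 did not.

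The places differed more in uTOP-seq than at 50 ng. In the rDNA bin the median hotspot stood at 88.1 ± 1.13 times the single-copy level at 50 ng and at 146 ± 10.8 times in uTOP-seq, with all 117 above 10 times in uTOP-seq and 82 higher there than at 50 ng. In the Sfi1 bins the medians were 88.0 ± 3.34 and 41.4 ± 3.14, and 4 of 89 hotspots were higher in uTOP-seq. In the other bins with several hotspots they were 109 ± 8.93 and 75.4 ± 7.38. In the bins with 1 hotspot they were 52.9 ± 8.04 and 5.10 ± 0.502, and 16 of the 20 stayed below 10 times the single-copy level in uTOP-seq. The 50-ng medians of the rDNA and Sfi1 bins lay within their SD of each other, while their uTOP-seq medians did not come near each other.

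**Figure D1:**
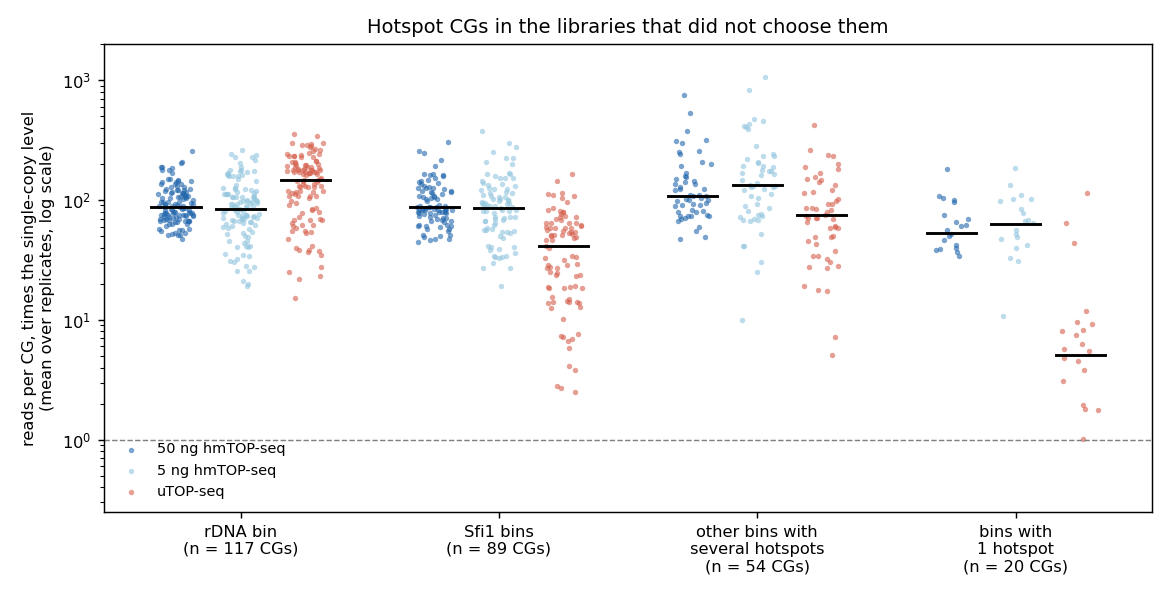
Reads per CG as folds over the single-copy level on a log axis, for every hotspot CG (points, mean over replicates) at 50 ng, at 5 ng and in uTOP-seq, by kind of place. Horizontal bars give the median, averaged over replicates, and the dashed line marks the single-copy level; the uTOP-seq median falls from 146 in the rDNA bin to 5.10 in the bins with 1 hotspot, while the 50-ng medians lie between 52.9 and 109.

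In the rDNA bin the raised coverage extended beyond the hotspots to the CGs between them. Between the first and the last hotspot, chr17:39843001 to chr17:39848710, there were 582 CGs. Of these, 407 exceeded 10 times the single-copy level at 50 ng and 514 did so in uTOP-seq, where 276 exceeded 100 times. The CGs that were not hotspots averaged 19.9 ± 0.238 times at 50 ng and 86.6 ± 3.94 times in uTOP-seq. In windows of 1 kb, the level in uTOP-seq went from 0.219 ± 0.264 to 122 ± 6.50 times the single-copy level at position 39843001 and from 101 ± 3.90 to 0.123 ± 0.213 at position 39849001. The change was thus abrupt on both sides. Outside these borders the CGs of the bin had no read at 50 ng in any of the 4 outer windows.

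The hotspot share along the rDNA stretch was uneven. In the window from 39843001 to 39844000, 39 of 81 CGs were hotspots and the 50-ng level was 70.3 ± 0.486 times, while the next window held 17 hotspots among 126 CGs at 31.6 ± 0.499 times. uTOP-seq was nearly level over the same windows, at 122 ± 6.50 and 110 ± 5.52 times. The hotspot with the highest 500-ng count here, chr17:39843849 in an exon of Gm26917, had 429 and 404 reads in the 500-ng, 376 and 279 in the 50-ng, 139 and 307 in the 5-ng, and 288, 260 and 214 in the uTOP-seq libraries. At the CG with the highest uTOP-seq level of the bin, chr17:39844460 in Gm26917, uTOP-seq counted 526, 441 and 461 reads and the 50-ng libraries 135 and 123. These CGs were picked as the highest of the bin in hmTOP-seq and in uTOP-seq, so their different ratios follow from the choice. Among all 117 hotspots of the bin, 82 were higher in uTOP-seq than at 50 ng. Whether such differences between CGs reflect the marks was not tested.

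The Sfi1 bins showed a longer and lower plateau. From chr11:3127214 to chr11:3193857, a span of 66644 bases, the 565 CGs that were not hotspots averaged 13.7 ± 0.213 times the single-copy level at 50 ng and 12.8 ± 0.283 times in uTOP-seq. By 10-kb bin, the whole level at 50 ng was between 16.7 ± 0.244 and 43.2 ± 0.314 times over the 7 bins from 3130001 to 3200000, and fell to 0.279 ± 0.122 times in the bin that follows. The bin before, which holds the hotspot in Pisd-ps1, a pseudogene of phosphatidylserine decarboxylase, stood at 1.22 ± 0.314 times. The highest hotspot of the tract, chr11:3146143 in an intron of Sfi1, had 486 and 472 reads in the 500-ng, 405 and 376 in the 50-ng, 251 and 259 in the 5-ng, and 222, 179 and 179 in the uTOP-seq libraries. Within the tract 36 hotspots were packed into 860 bases at the border of Sfi1 and Drg1, which encodes a GTP-binding protein.

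**Figure D2:**
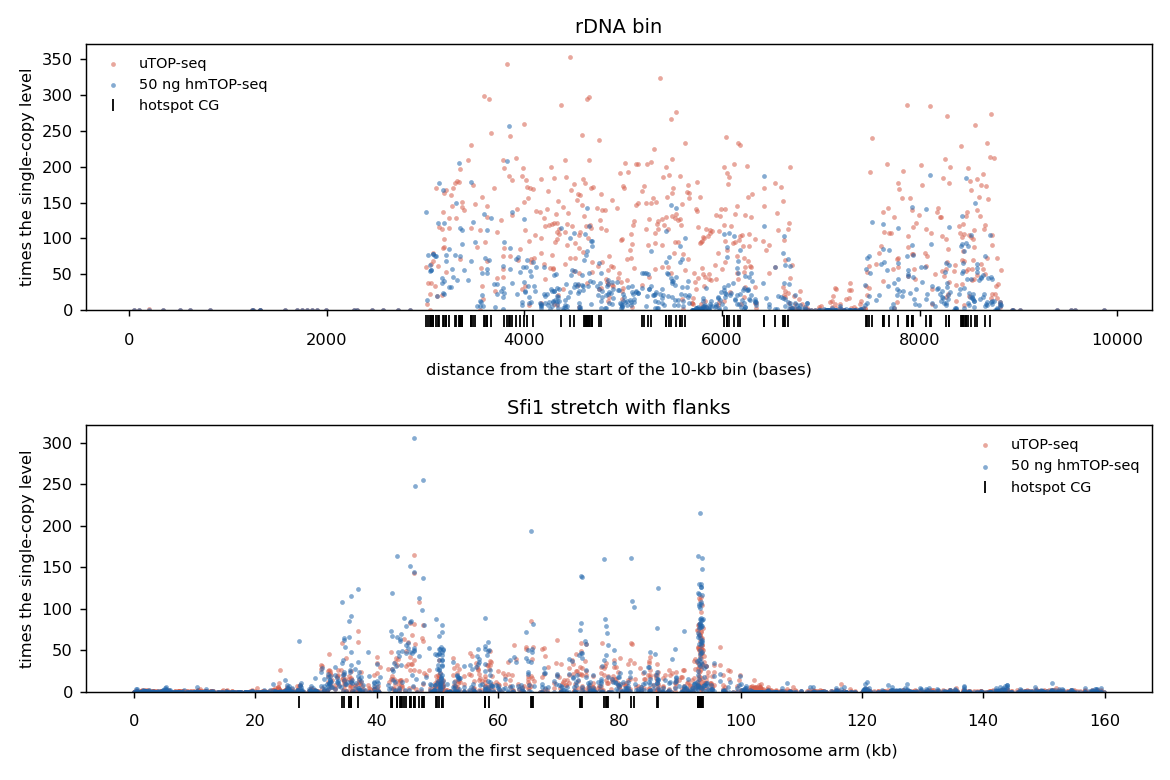
Reads per CG as folds over the single-copy level for every CG of the rDNA bin (upper panel, distance in bases from the bin's start) and of the Sfi1 bins with their flanks (lower panel, distance in kb from the first sequenced base of the chromosome), at 50 ng (blue) and in uTOP-seq (red), each the mean over replicates. Black ticks under the axis mark hotspots; in both panels the level rises and ends abruptly, and uTOP-seq lies above hmTOP-seq over most of the rDNA stretch but not over the Sfi1 stretch.

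In every kind of place the level was lower from 1000 to 5000 bases away from a hotspot than within 50 bases, but by different amounts. In the rDNA bin, CGs within 50 bases of a hotspot averaged 25.4 ± 0.0953 times the single-copy level at 50 ng and 102 ± 5.03 times in uTOP-seq. Around the other bins with several hotspots the values were 17.6 ± 0.133 and 42.3 ± 2.02 times within 50 bases, 2.56 ± 0.0704 and 2.04 ± 0.310 times from 200 to 1000 bases away, and 0.494 ± 0.0131 and 0.941 ± 0.0242 times from 1000 to 5000 bases away. Around the Sfi1 hotspots CGs in this last class still averaged 6.33 ± 0.227 and 8.71 ± 0.273 times. Around the solitary hotspots the 50-ng level was 9.94 ± 0.00626 times within 50 bases and 1.93 ± 0.0609 times from 1000 to 5000 bases away, and the uTOP-seq level was 4.69 ± 0.104 and 1.49 ± 0.0437 times.

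**Figure D3:**
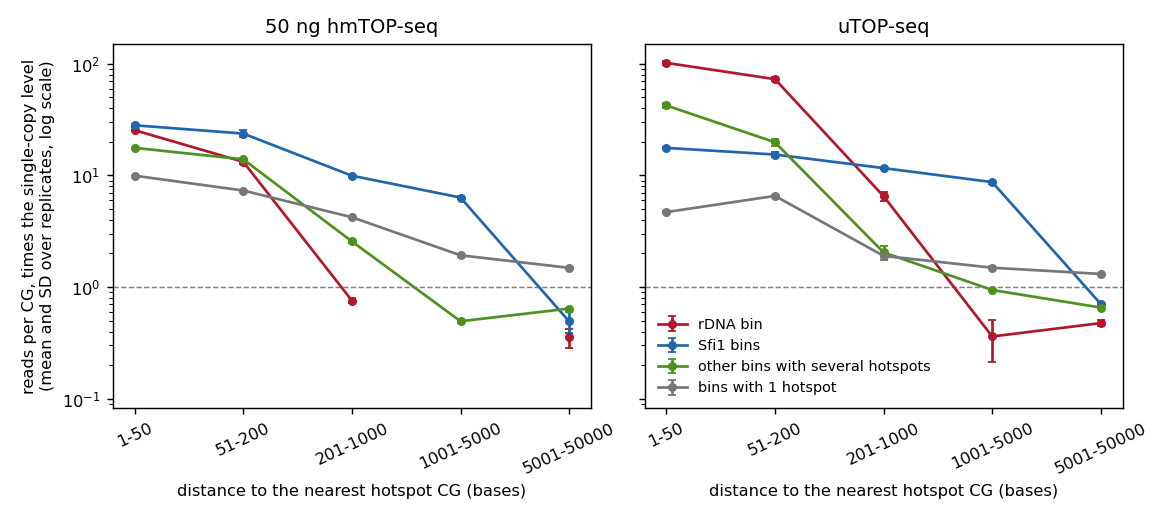
Mean reads per CG of the CGs around hotspots, as folds over the single-copy level on a log axis (mean and SD over replicates), by distance to the nearest hotspot and kind of place, at 50 ng (left) and in uTOP-seq (right). The Sfi1 bins stay above 6 times out to 5000 bases, the others approach or fall below the single-copy level (dashed); the rDNA value of 0 in the class up to 5000 bases at 50 ng cannot be drawn on this axis.

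Bins were called raised in both assays when their CGs other than hotspots averaged at least 3 times the single-copy level at 50 ng and in uTOP-seq. This was so for 12 of the 40 hotspot bins, against 0.0209% of all autosomal bins (50 bins). The 12 were the rDNA bin, 7 of the 8 Sfi1 bins and the bins chr11:109010001-109020000, chr2:98660001-98670000, chr1:195240001-195250000 and chr5:146260001-146270000. None of the 20 bins with a solitary hotspot was among them, although 6 of these were raised at 50 ng alone and 3 in uTOP-seq alone, where 0.881% of all bins reached 3 times at 50 ng and 0.0876% in uTOP-seq. All 8 autosomal bins at 10 times or more in both assays (0.00334% of bins) were hotspot bins. When only CGs within 200 bases of a hotspot were counted, 24 of the 39 bins with such a neighbor were raised in both assays and 11 at 50 ng alone. These CGs lie beside CGs chosen for high hmTOP-seq counts, and no share over all autosomal bins stands beside this count. It is therefore given as a description only. Some bins rest on few CGs, such as chr18:3000001-3010000 with 2. The averages over whole bins also include the CGs within 200 bases of a hotspot. In uTOP-seq these stood at 86.1, 14.4, 20.7 and 30.5 times in the last 4 bins named among the 12. All CGs other than hotspots averaged 18.3, 8.20, 4.48 and 9.80 times there, in the same order. Whether these bins were raised farther from their hotspots was not tested. The counts of raised hotspot bins set beside all bins are therefore no independent result.

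**Figure D4:**
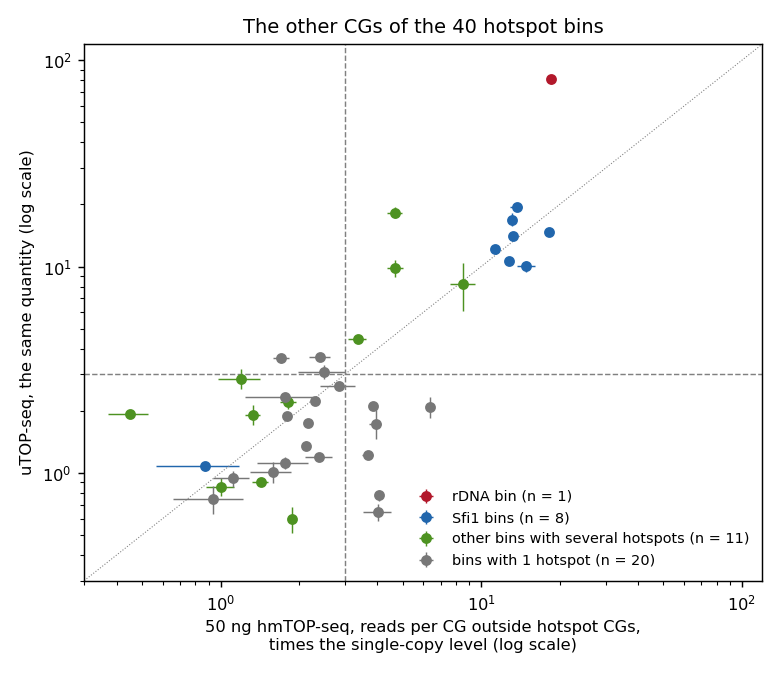
Reads per CG of the CGs other than hotspots in each of the 40 hotspot bins, as folds over the single-copy level on log axes (mean and SD over replicates), at 50 ng (horizontal) and in uTOP-seq (vertical). Dashed lines mark 3 times and the dotted line equal folds; the 7 raised Sfi1 bins lie between 11.3 and 18.3 times at 50 ng and close to the dotted line, and the rDNA bin lies above it at 18.5 and 80.8 times.

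The bins with several hotspots differed in their signal beyond the hotspots themselves. In the bin near Ly6c2, 9 hotspots averaged 329 ± 2.60 times the single-copy level at 50 ng and 87.2 ± 7.86 times in uTOP-seq, and the other CGs of the bin stood at 1.0 ± 0.126 and 0.856 ± 0.0841 times. The bin chr11:109010001-109020000, with the RefSeq noncoding gene Gm36876 and 60932 bases from Axin2, a feedback inhibitor of WNT signaling, held 12 hotspots within 262 bases. They averaged 93.6 ± 1.05 times at 50 ng and 162 ± 7.27 times in uTOP-seq, and chr11:109011870 among them, picked after its values were seen, had the highest uTOP-seq counts of all hotspots, 658, 564 and 512 reads. Hotspots in an intron of Cdk8, a kinase of the Mediator complex, were likewise higher in uTOP-seq, at 195 ± 19.4 times, than at 50 ng, at 66.0 ± 0.674 times. So were those in the bin of the 5.8S ribosomal RNA gene n-R5-8s1 on chromosome 18, at 142 ± 12.8 and 89.0 ± 7.76 times. The n-R5-8s1 bin was chosen after its values were seen. CGs other than hotspots averaged 4.67 ± 0.308 times at 50 ng and 18.3 ± 1.07 times in uTOP-seq in the bin of Gm36876. The values were 4.68 ± 0.326 and 9.80 ± 0.914 times in the Cdk8 bin, and 1.20 ± 0.221 and 2.86 ± 0.317 times in the n-R5-8s1 bin. No hotspot outside the rDNA bin had a 200-base window similar to that bin by the criterion given next. That criterion asks for at least 160 aligned bases, so a shorter shared stretch, such as a short gene alone, could not be found. Whether these bins share shorter sequence with the rDNA bin was not tested.

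Similar sequence elsewhere in the reference was sought for the 200 bases around each hotspot, at 90% identity over at least 160 aligned bases. It was found for 113 of the 280 hotspots and in 17 of the 40 bins. The search was made for hotspots only, so no share over all autosomal CGs or bins stands beside these counts. Of the 89 Sfi1 hotspots, 51 had a similar window, and for 50 of these it included an unplaced contig of the assembly, with up to 100% identity. The paper names mm10 as its mapping reference and does not say whether unplaced contigs were included. Hotspots in Pisd-ps2, on chromosome 17, and in Pisd-ps1, on chromosome 11, each had a similar window in the bin of the other, and their best identity to any window elsewhere was 99.5%. In the rDNA bin 30 of the 117 hotspots had a similar window elsewhere, with up to 97.8% identity. The bins near Ly6c2 on chromosome 15 and at the start of chromosome 18 shared windows as well, for 8 of 9 hotspots in the former. The bins in Aida on chromosome 1 and near Cr2, the gene of a complement receptor, shared windows with the bin chr19:61260001-61270000, for 2 of 6 and 3 of 7 hotspots.

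Exact copies were counted over a shorter window. The 100 bases around a hotspot occurred more than once in the reference for 24 hotspots, or 8.57%. This share was near the 7.23% of all autosomal CGs, and 19 of the 24 hotspots were in the Sfi1 bins. In 17 of the 20 bins with a solitary hotspot, no similar window was found anywhere. The bin chr2:98660001-98670000, with the predicted genes Gm10800 and Gm10801, had up to 376 similar windows per hotspot, and the bin chr4:147400001-147410000, in C230088H06Rik and Gm26624, had up to 821. Assembly gaps of at least 50 unknown bases lay within 100 kb of 13 of the 40 hotspot bins, among them all 8 Sfi1 bins, and within 100 kb of 1.27% of all autosomal bins.

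Of 21 genes listed as multi-copy or collapsed loci, 20 could be matched to an annotation, and 3 held hotspots: Sfi1 with 74, Gm10800 with 5 and Gm10801 with 2. The other 17 held none, among them Erdr1 and Mid1 on the X chromosome, where hotspots were not sought, and Rn45s was the gene not matched. Their highest counts in the lower 500-ng library ranged from 0 to 46. Most of them held few reads: at 50 ng, Gm10721, Gm17535, Ccl21a, Il11ra2 and Erdr1 had none. Of the rest only Cwc22, Gm21738 and Hjurp exceeded the 0.316 ± 0.0307 times of Mid1. The authors kept only hmTOP-seq reads above a minimum mapping quality, so reads that match several copies in the reference may be missing here. How far this lowered the counts of these loci was not tested. Hjurp, which encodes the chaperone of the centromeric histone, had 0 hotspots among 259 CGs and stood at 1.56 ± 0.168 times the single-copy level at 50 ng and at 2.44 ± 0.251 times in uTOP-seq. Cwc22, a splicing factor gene, stood at 0.574 ± 0.0378 and 0.632 ± 0.0275 times. Gm21738 stood at 0.871 ± 0.0679 and 1.29 ± 0.393 times.

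Hotspots that were alone in their bin, called solitary here, were found in or near genes of many kinds, and those described were picked after their values were seen. Solitary refers to the bin only: 3 of them lay in successive bins, chr7:38180001-38210000, in or beside 1600014C10Rik, and a CG just outside the threshold lay there too. In these bins the CGs other than hotspots averaged 6.35 ± 0.198, 3.67 ± 0.183 and 3.93 ± 0.206 times the single-copy level at 50 ng, and 2.09 ± 0.241, 1.22 ± 0.0232 and 1.73 ± 0.283 times in uTOP-seq. In a coding exon of Cpne6, which encodes a calcium-binding copine, chr14:55515592, had 117 and 112 reads in the 500-ng, 51 and 47 in the 50-ng, 27 and 41 in the 5-ng, and 0, 4 and 0 in the uTOP-seq libraries. An intronic hotspot of 1600014C10Rik, chr7:38191820, had 168 and 182 reads in the 500-ng, 117 and 140 in the 50-ng, 24 and 110 in the 5-ng, and 4, 1 and 3 in the uTOP-seq libraries. In the UTR of Nxf1, the gene of the mRNA export receptor, chr19:8765824 had 129 and 111 reads in the 500-ng, 76 and 57 in the 50-ng, 81 and 94 in the 5-ng, and 22, 6 and 7 in the uTOP-seq libraries. At these CGs every labeled hmTOP-seq library had at least 24 reads, while the uTOP-seq mean stayed below 10 times the single-copy level. Further solitary hotspots lay in Wnt10a, Nacad, Arhgef2, Prkcz, Pcnt and Mapt, which encodes the microtubule protein tau, with 50-ng levels between 34.3 and 60.3 times and uTOP-seq levels between 1.82 and 9.20 times.

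A few solitary hotspots differed from this. In the UTR of Lars2, which encodes a mitochondrial leucyl-tRNA synthetase, chr9:123461897 stood at 95.6 ± 25.7 times at 50 ng and 43.9 ± 7.24 times in uTOP-seq. In an intron shared by Cmss1 and Filip1l, chr16:57391674 stood at 75.1 ± 3.19 and 115 ± 6.19 times. Near the end of chromosome 19, chr19:61267160 stood at 181 ± 2.89 and 64.7 ± 3.99 times. These and the hotspot of chr3:96329960, at 65.7 ± 29.5 and 11.8 ± 6.09 times, were the 4 solitary hotspots above 10 times in uTOP-seq.

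hmTOP-seq at 50 ng and uTOP-seq were compared in 10-kb bins with edgeR (quasi-likelihood test, TMM), and p-values were adjusted by the Benjamini-Hochberg method over 223743 bins. At an adjusted p below 0.05, 37 of the 40 hotspot bins were called, 32 with a larger share of hmTOP-seq reads and 5 with a larger share of uTOP-seq reads. Over all bins 43.6% were called, 22.5% with more hmTOP-seq and 21.1% with more uTOP-seq. With library totals in place of TMM the all-bin split changed to 38101 higher and 58913 lower, from 50415 and 47216, and the median of all bins moved from -0.11 to -0.30 on the log2 scale, which left 26 hotspot bins higher and 5 lower. The hotspots had been chosen for high hmTOP-seq counts, so the direction of their own reads is no independent result.

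With the reads of the hotspot CGs removed, 26 hotspot bins were called, 16 higher in hmTOP-seq and 10 higher in uTOP-seq, against 22.5% and 21.1% of all bins. The hotspots were chosen for high hmTOP-seq counts, so their removal favors a shift toward uTOP-seq. Such shifts are therefore no independent result. The rDNA bin had a log2 ratio of hmTOP-seq to uTOP-seq of -1.32 with its hotspots (adjusted p = 9.73e-13) and -1.96 without them. For the bin of Gm36876 the values were -1.11 (adjusted p = 8.90e-10) and -1.81, and for the Cdk8 bin -1.01 (adjusted p = 1.05e-07) and -0.90. The Sfi1 bins differed from each other: chr11:3150001-3160000 had 0.95 with hotspots and 0.74 without, chr11:3170001-3180000 had 0.61 and 0.08, and chr11:3190001-3200000 had 0.51 and -0.35. The bin near Ly6c2 had 2.04 with hotspots and 0.39 without (adjusted p = 0.324), so that its excess of hmTOP-seq reads was carried by the 9 hotspots.

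**Figure D5:**
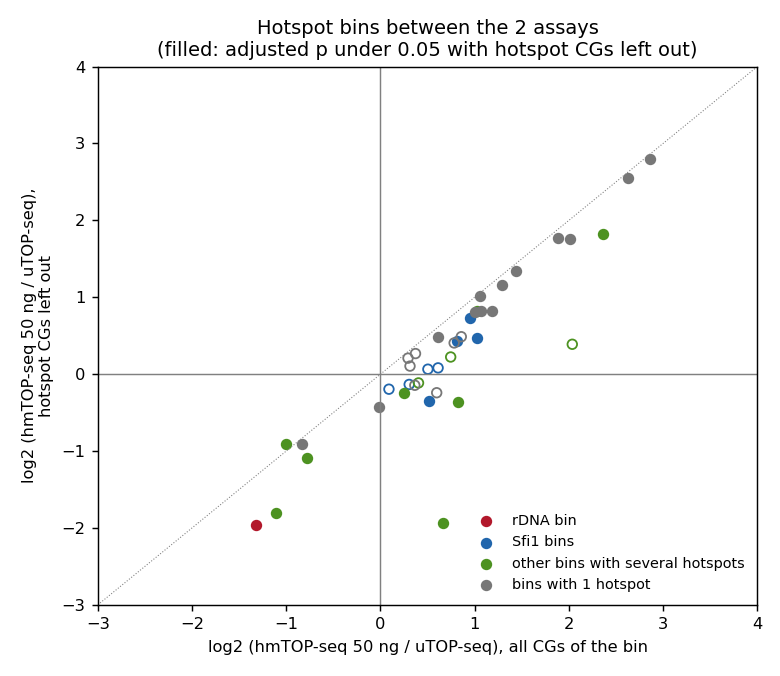
Log2 ratio of 50-ng hmTOP-seq to uTOP-seq in the 40 hotspot bins (edgeR, TMM), with all CGs of the bin (horizontal) and with hotspot CGs left out (vertical); filled points passed an adjusted p of 0.05 with hotspot CGs left out. Points below the dotted line lost hmTOP-seq share when their hotspots were removed, a shift favored by the choice of hotspots for high hmTOP-seq counts. The rDNA bin lies at -1.32 and -1.96.

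Input was compared between 5 and 50 ng in the same manner over 179822 bins. No hotspot bin was called by edgeR, and no bin was called at all (0% of all bins), with 3 hotspot bins and 9197 bins in all at an unadjusted p below 0.05. DESeq2 called 2 hotspot bins, both higher at 5 ng, and 1457 bins in all. The count of calls depended on the 5-ng replicates. Without the first 5-ng replicate 10 hotspot bins and 56410 bins in all were called, and without the second 12 and 53069 were called, under the assumption that the remaining library varies like the 50-ng libraries. The median log2 difference of the hotspot bins was 0.04, beside -0.0028 over all bins, with all hotspots included.

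Reads of the control libraries without BGT were also found at the hotspots. The 280 CGs, which are 0.00137% of autosomal CGs, received 47 of 9946 and 51 of 9225 autosomal control reads at 500 ng, or 0.473% (95% Wilson interval 0.356% to 0.628%) and 0.553% (0.421% to 0.726%). At 50 ng the controls had 20 and 6 such reads, 0.591% (0.383% to 0.911%) and 0.177% (0.0812% to 0.386%), and at 5 ng 24 and 14, 0.646% (0.435% to 0.960%) and 0.296% (0.177% to 0.497%). In the labeled libraries the share was between 0.157% and 0.184%, and in uTOP-seq between 0.145% and 0.160%. The hotspots thus took a share of control reads at or above their share of labeled reads, in libraries where all reads together were few. These intervals cover counting error only.

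Control reads were concentrated in a few places. Of the 162 control reads at hotspots, 55 were in the rDNA bin, 98 in the other bins with several hotspots, 5 in the Sfi1 bins and 4 at solitary hotspots. The CG chr2:98667207 in Gm10800 had 35 of them, and the bin chr2:98660001-98670000 received 64 and 43 control reads at 500 ng at its 98 CGs. Over the classes of 500-ng coverage the rate rose steeply at the top, from 2.94 control reads at 500 ng per 1000 CGs in the class of 20 to 49 reads to 38.6 in that of 50 to 99 and 350.0 at the hotspots. Their part in the counts of the labeled libraries was not tested.

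CGs below the threshold were compared with the hotspots by class of 500-ng coverage. CGs with 50 to 99 reads in the lower 500-ng library had a mean uTOP-seq level of 12.5 ± 0.266 times and those with 20 to 49 reads 3.86 ± 0.0211 times the single-copy level, against 95.1 ± 5.15 times at the hotspots. In uTOP-seq the reads of a CG were split by strand: of 268 hotspots with at least 20 uTOP-seq reads, 97 (36.2%) had at least 90% of them on the same strand, compared with 38.5% of the other autosomal CGs with at least 20 reads and 45.2% of those with at least 100. By place the share was 23.8% in the Sfi1 bins, 34.2% in the rDNA bin, 38.5% in the bins with 1 hotspot and 59.3% in the other bins with several.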

How the data were processed

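The deposited files hold counts of reads per CG, not normalized, for 12 hmTOP-seq and control libraries (both strands merged) and for 3 uTOP-seq libraries (by strand). Before deposit, the authors mapped the reads to mm10, kept a minimum mapping quality, removed reads with the same start and length, and assigned the rest to CGs. The aligner is not given in the sources used here. Libraries were grouped by their labels.

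Hotspots were taken by the rule given above. Genes came from GENCODE M21 and RefSeq annotations of GRCm38. Similar sequence was sought with BLAST+ 2.17.0 (windows of 200 bases, at least 90% identity over 160 bases). Counts summed in 10-kb bins with a mean of at least 10 reads per library were tested with the quasi-likelihood test of edgeR 4.0.16 in R 4.3.3 (TMM, Benjamini-Hochberg threshold 0.05, trended dispersion), and DESeq2 1.42.0 was the alternative tool. The tests were checked on simulated data. Levels and figures were made with Python 3.11.15, numpy 2.4.6, pandas 2.3.3 and matplotlib 3.10.9. Shares have 95% Wilson intervals, which cover counting error only.

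The bins described are the 15 with most hotspots and the 10 with most uTOP-seq reads per CG outside hotspots. The CGs described are the 10 with the highest 500-ng counts and the 3 on each side of the threshold. Other bins and CGs named, such as those of n-R5-8s1, C230088H06Rik and the end of chromosome 19, were picked after their values were seen. The members, the list of multi-copy loci and the tests were chosen with earlier results of these data known. The alternatives tried were the minimum count, the base level, bins, normalization, filter, tool, replicate block and leaving out each replicate.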

Additional observations from a re-analysis of the deposited data

Results flagged for a closer look

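High counts also occurred at autosomal CGs that were not hotspots. In the 5-ng libraries 607 and 958 such CGs had at least 100 reads, where the 5-ng controls had 0 and 1. Of the 1561 CGs concerned, 4 reached 100 reads in both 5-ng libraries, 1160 had a read in both 50-ng libraries and 134 in neither, and the median of their mean 500-ng counts was 15.5 reads. High counts at 5 ng were thus mostly not shared between the replicates. In uTOP-seq 347, 307 and 253 such CGs had at least 100 reads. There 251 reached that count in all 3 libraries, 236 of them in hotspot bins and 215 in the rDNA bin. The CGs were not described singly, but their reads entered the averages over CGs other than hotspots and the tests in 10-kb bins.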

How the results depend on the processing

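A minimum of 50 reads gave 3050 hotspots in 2338 bins and a minimum of 200 gave 64 in 16, and taking either 500-ng replicate alone gave 313 to 353 hotspots in 49 to 89 bins. The median levels of 89.6 times at 50 ng, 88.0 at 5 ng and 70.7 in uTOP-seq became 105, 103 and 84.1 with all autosomal CGs as the base, 19.9, 5.97 and 30.1 with only CGs that had a read as the base, 107, 114 and 95.1 as means, and 159, 178 and 92.2 with the minimum of 200. For 5 against 50 ng, DESeq2 called 2 hotspot bins and leaving out a replicate gave 0 to 12. The other 39 values of these results stayed within 1.5 times, or within the replicate spread. Between hmTOP-seq and uTOP-seq, leaving out the hotspot CGs turned the log2 ratio to -0.35 in chr11:3190001-3200000, -0.25 in chr1:195240001-195250000, -1.94 in chr1:183290001-183300000, -0.20 in chr11:3160001-3170000, -0.37 in chr17:3080001-3090000 and -0.11 in chr2:181910001-181920000, an alternative that by construction removes the CGs with the highest hmTOP-seq counts. Library totals turned chr11:3160001-3170000 to -0.10.

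Replicate numbers did not pair the libraries (correlations of deviations 0.0023 at 5 against 50 ng, and -0.0017 and 0.0022 between assays). With the number as a replicate block, 36 hotspot bins in place of 37 differed between assays and 72992 bins in place of 97631, and between 5 and 50 ng 0 hotspot bins and 2 bins in all were called. The replicates are not known to be separate cultures, at 5 ng most CGs have no read, and windows similar at under 90% identity were not sought.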
